A study of Mus musculus with 6 samples.

Results

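The 43 genes described here code for the E2F transcription factors, the retinoblastoma family that restrains them, and the proteins that license, copy and repackage DNA in S phase, other than the Mcm helicase. They were taken by gene symbol from a fixed list and not by a cut on measured values. The list was chosen with earlier results of these data known. All 43 were present among the 51804 gene symbols of the deposited table. The RNA came from mouse kidney: 3 libraries carry the genotype Ccnb1f/f;Cdh16-Cre (here "labelled knockout", numbered knockout 1 to 3) and 3 the genotype Ccnb1f/f ("control"), so both groups have floxed Ccnb1 and the Cre transgene is what differs. Ccnb1 encodes cyclin B1, which activates Cdk1 at entry into mitosis, and the Cdh16 promoter drives Cre recombinase in renal tubular epithelium, so vessels, stroma and immune cells of the same kidney keep their alleles. The study asked how loss of cyclin B1 in tubular cells, with arrest before mitosis, bears on kidney fibrosis. Sex, age, strain background and the floxed exons are not given in the labels, which also do not say whether each replicate was its own animal. The p-values therefore measure only how these libraries scatter, which may be technical.

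In quiescent cells, pocket proteins (Rb1, Rbl1, Rbl2) sit on E2F factors at the promoters of S phase genes and hold them silent. Cyclin-dependent kinases release this block late in G1. E2F1 to E2F3 then switch on genes for origin licensing, replication forks and deoxynucleotides, and the induced factors E2F7 and E2F8 later shut them off. Most cells of the adult kidney tubule are out of the cycle, and they return to it after injury.

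Library depth was 16061435 to 21261226 estimated counts, and a count of 0 allows up to 3 counts, or 0.138 to 0.189 CPM (counts scaled to TMM-normalised library size), for counting error only. Ccnb1 itself had 18, 15 and 11 counts by label in knockout 1, 2 and 3, against 11, 17 and 7 in controls 1, 2 and 3, so it does not check the labels, and directions below are by label. Epithelial genes of the kidney such as Slc34a1 (1857 FPKM on average) and Umod (2024 FPKM) were abundant, as the tissue label says; the extraction protocol also mentions cultured cells. Cycling-cell genes (Mki67, Top2a, Cdk1, Ccnb2, Birc5, Cenpf, Tpx2) summed to 17.0, 8.58 and 9.92 CPM in the libraries labelled knockout, against 13.8, 12.3 and 8.76 CPM in controls. In whole tissue, fewer cells of a type and less RNA per cell cannot be told apart.

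E2F factors bind short sites close to the start of their target genes, and letter matches to these sites are shown as background. The list was drawn from knowledge of the E2F pathway, so a high share of matches is no independent evidence. RefSeq promoter windows (GRCm38.p6, 250 bases before to 50 after the start site) were matched for 35 of the 43 genes; E2f4, E2f5, Rb1, Gins1, Gins2, Gins4, Rfc2 and Pole were not matched. The E2F motif was searched as TTTGGCGC, TTTCGCGC, TTTCCCGC or TTTGCCGC on both strands. It was found in 13 of 44 windows of these genes (29.5%), against 2.26% of the 32851 windows in the table. By gene, 13 of 35 (37.1%) held a match, against 2.60% of 27025 genes. The pentamer CCAAT, bound by NF-Y, was in 52.3% of the windows of these genes and 37.4% of all windows. TTTGAA, the CHR element of late cell cycle genes, was in 15.9% and 17.9%. A match is a run of letters and not a measured binding site, no binding was measured here, and the shares were not adjusted for base composition.

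The 10 matches that lie before the RefSeq start site are printed with up to 11 bases on either side. They read 5′ to 3′ on the strand of the gene, with the motif in capitals. Where the capitals read GCGGGAAA, GCGCGAAA or GCGCCAAA, the motif lies on the opposite strand.
Orc1 (chr4:108579416-108579445, plus strand): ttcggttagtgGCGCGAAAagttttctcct
Orc3 (chr4:34614965-34614994, minus strand): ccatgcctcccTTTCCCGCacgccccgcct
Rbl1 (chr2:157204534-157204563, minus strand): aagaaggcgatTTTCGCGCgctttgtcgcg
E2f3 (chr13:29986056-29986085, minus strand): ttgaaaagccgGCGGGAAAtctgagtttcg
E2f7 (chr10:110745230-110745259, plus strand): cccgcgtccccGCGGGAAAcgctcccgcgt
Rfc3 (chr5:151651200-151651229, minus strand): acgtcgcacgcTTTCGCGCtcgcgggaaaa
Gins3 (chr8:95633507-95633536, plus strand): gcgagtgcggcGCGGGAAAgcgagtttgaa
Cdc6 (chr11:98908002-98908031, plus strand): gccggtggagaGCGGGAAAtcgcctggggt
Pola1 (chrX:93632275-93632304, minus strand): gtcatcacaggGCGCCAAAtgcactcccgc
Uhrf1 (chr17:56304117-56304146, plus strand): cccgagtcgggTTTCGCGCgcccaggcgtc

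Of these, 6 lay within 100 bases of the start, with the first motif base at -10 for Rfc3, -11 for E2f3, -18 for Rbl1, -27 for Orc1 and -41 for Gins3 and Orc3. The other matches lay after the start, in E2f2, Cdt1, Lig1 and a second one in Rfc3. These positions hold for the RefSeq start used. By the deposited gene bounds, the matches of Orc1, Gins3, Cdc6, Uhrf1 and Rfc3 lay inside the gene, and that of E2f2 before it. The 13 genes with a match had a median level of 1.07 FPKM (0.0767 to 18.5), and the 22 without had 4.69 FPKM (0.0617 to 29.8). Their median log2 fold changes, labelled knockout over control, were both 0.03 over 10 and 21 tested genes. Genes without a match, E2f1, Pcna, Rrm2 and Tk1 among them, lack only these exact letters in this window. They may hold other sites, so the split does not separate E2F targets from other genes. Of the genes with a match, Orc3 had the highest level, at 18.5 FPKM.

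**Figure D1:**
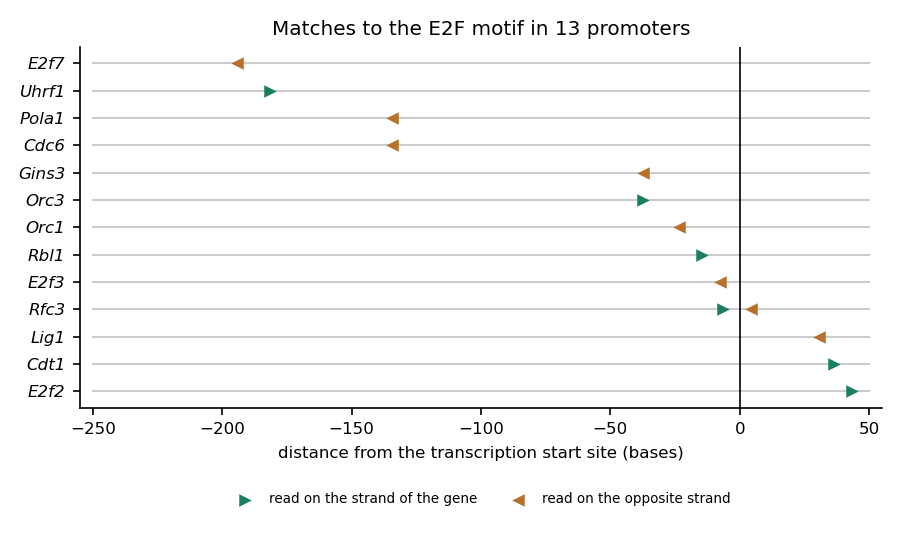
Position of each match to the E2F motif (triangles, pointing along the strand on which it reads) in the 13 genes that hold one; the x axis is the distance from the transcription start site in bases and grey lines mark the window searched. The matches of Rfc3, E2f3, Rbl1, Orc1, Orc3 and Gins3 sit just before the RefSeq start.

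The genes spanned a wide range of levels, given here as FPKM, which is scaled by transcript length and so allows comparison between genes. Gene values are sums over transcripts and need not follow the counts where these are few. E2f7, for example, had 0.14 FPKM from 1 count in knockout 2, against 0.1 FPKM from 8 counts in control 2. Pcna, the sliding clamp of DNA polymerases, was highest at 29.8 FPKM on average over 6 libraries (27.1 to 34.1), and Rfc2, a subunit of the loader that places this clamp, followed at 28.2 (24.7 to 31.2), with overlapping ranges. At the other end, E2f8 averaged 0.0617 FPKM, 484 times below Pcna, a ratio that rests on 0 to 8 E2f8 counts per library. The median of the 43 genes was 3.04 FPKM, against 7.91 for the 15017 genes tested, and 14 of the 43 stood above that median. In all, 10 genes exceeded 10 FPKM, 23 lay between 1 and 10, and 10 lay under 1.

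Among E2F factors, the repressors E2f4, at 20.6 FPKM, E2f5, at 19.6, and E2f6, at 12.4, were the abundant ones. The activators were low, with E2f3 at 2.03, E2f1 at 1.17 and E2f2 at 0.618 FPKM, and the cycle-induced repressors E2f7 and E2f8 were barely present. Of the pocket proteins, Rbl2 (p130), the partner of E2F4 in quiescent cells, was highest at 22.3 FPKM, above Rb1 at 9.06 and Rbl1 (p107) at 2.28. These ranges over 6 libraries (19.3 to 24.6, 7.57 to 10.8 and 1.6 to 3.58 FPKM) did not overlap. In the origin recognition complex, Orc3 (18.5 FPKM), Orc4 (14.2), Orc2 (8.44), Orc5 (7.76) and Orc6 (4.54) were all present, while Orc1, the subunit that is made and destroyed with the cycle, stood at 0.170. Cdc6, which loads the helicase onto origins together with Cdt1, was at 0.188 FPKM against 1.95 for Cdt1.

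**Figure D2:**
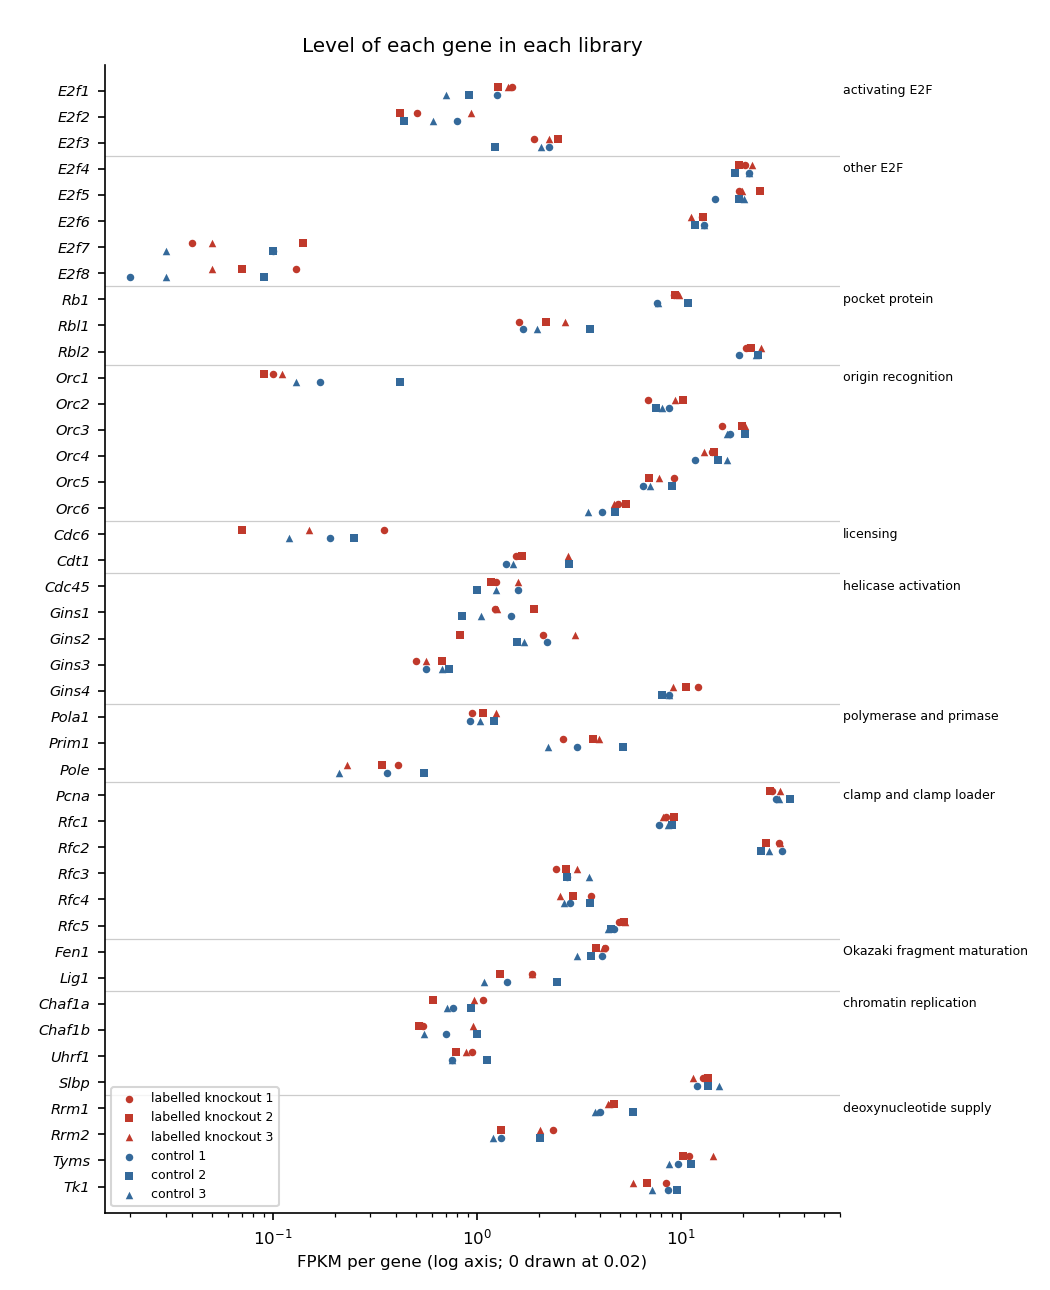
FPKM per gene (x axis, logarithmic) for all 43 genes (y axis, grouped by role) in each of 6 libraries, red for labelled knockout and blue for control, with marker shape for the replicate. E2f4, E2f5, Rbl2, Orc3, Pcna and Rfc2 sit near 20 to 30 FPKM, and E2f7, E2f8, Orc1 and Cdc6 lie far below 1 in every library.

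Of the 43 genes, 39 passed the expression filter and were tested; none passed the threshold. With edgeR's quasi-likelihood test and Benjamini-Hochberg adjustment over 15017 genes, 0 of 39 had an adjusted p under 0.05, where 0.0133% of all genes did (0.00666% higher and 0.00666% lower by label). At an unadjusted p under 0.05 there were again 0 of 39, against 3.23% of all genes tested (1.35% higher and 1.88% lower). DESeq2 and limma on log2(FPKM + 1) also called 0. Groups did not overlap for 1 gene, Pcna, which was lower by label, against 8.18% of all genes in either direction, 4.1% higher and 4.08% lower. Fold changes stood above 0 for 25 genes and below 0 for 14, where 49% of all genes stood above 0, with a median log2 value of 0.04 (range -0.26 to 0.53) beside -0.01 for all genes tested.

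The intervals show what size of change these libraries could hold. For 35 of 39 genes the 95% confidence interval of the log2 fold change lay between -1 and 1, that is, within a 2-fold change either way, and for 19 it lay within 1.5-fold. For all genes tested the first share was 78.9%, against 89.7% of the 39. Within 1.5-fold lay 8372 of 15017 genes tested, a larger share than the 19 of 39. The 4 genes with wider intervals were E2f1 (-0.10 to 1.17), Gins1 (-0.34 to 1.28), Gins2 (-1.03 to 0.72) and Pole (-1.32 to 0.83). With 1 library left out in turn, 29 to 31 genes lay within 2-fold. The standard error depended on level, with a median of 0.12 for the 12 genes at 20 CPM or more and 0.37 for the 4 genes from 0.5 to 2 CPM, close to 0.13 and 0.43 for all genes in the same bands.

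**Figure D3:**
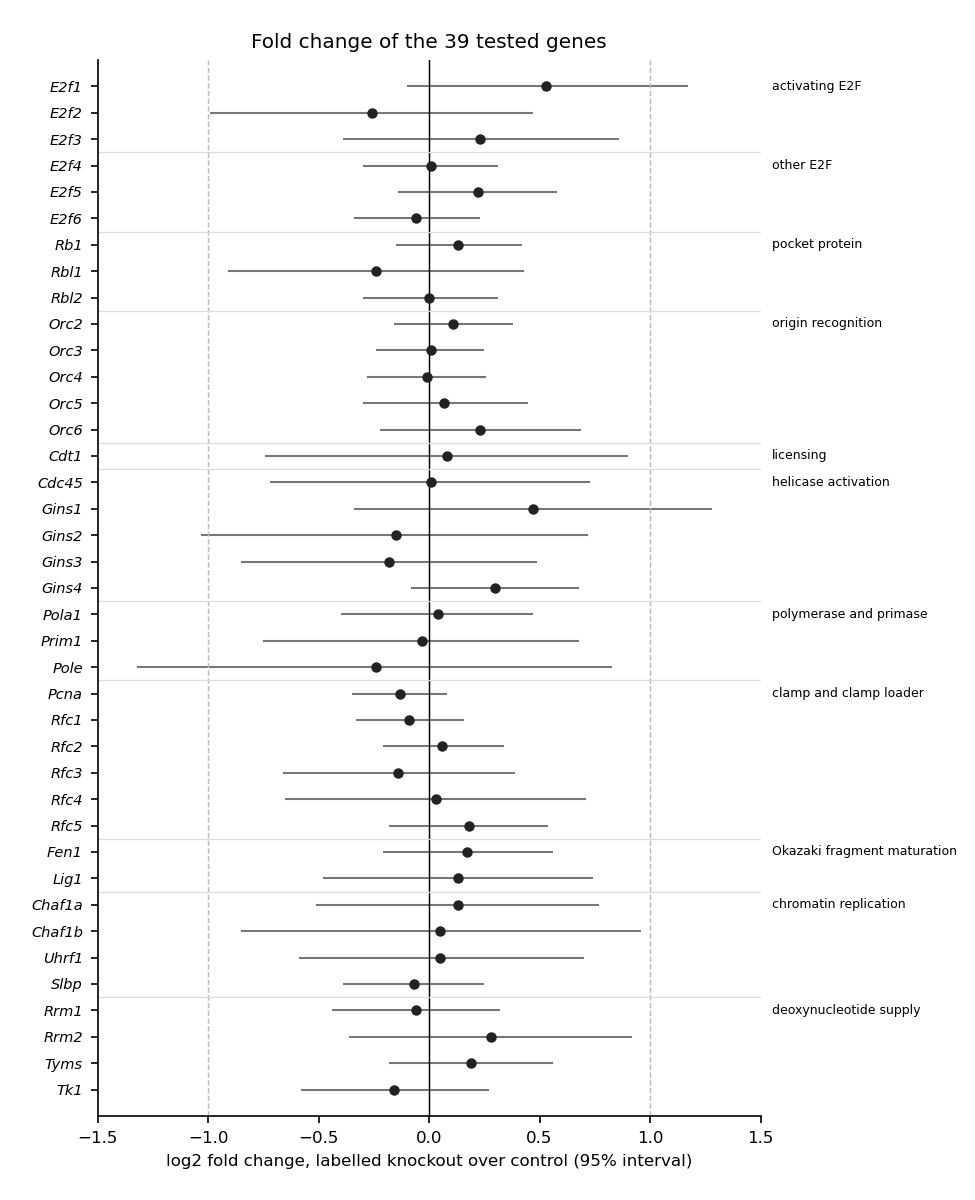
Log2 fold change, labelled knockout over control (x axis, points), with its 95% confidence interval (lines) for the 39 tested genes (y axis, by role); dashed lines mark a 2-fold change. Every interval includes 0, and E2f1, Gins1, Gins2 and Pole reach past a dashed line.

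Among the activating E2F genes, E2f1 had the lowest unadjusted p of all 39 genes, without passing the threshold. E2f1 (ENSMUSG00000027490, chromosome 2, 154559407 to 154569892, GRCm38) stood at 4.06, 3.53 and 3.83 CPM in the libraries labelled knockout, against 3.58, 2.33 and 1.99 CPM in controls. Control 1 lay inside the range of the libraries labelled knockout, and the other controls lay below it. The means were 3.81 ± 0.263 against 2.63 ± 0.839 CPM (SD, n = 3 each). The difference on the log2 scale was 0.53 (SE 0.28; edgeR unadjusted p = 0.0902, adjusted p = 0.9995; exact two-sided permutation p = 0.2, where 0.1 is the smallest 3 against 3 allows). The value ran from 0.37 without control 3 to 0.82 without control 1. E2f1 holds 2 transcripts, and the deposited estimates gave the main one from 13.7% to 100% of its counts, so only the gene sum is used.

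E2f3 and E2f2 gave values on either side of 0. E2f3 stood at 8.69, 11.6 and 10.1 CPM by label against 10.8, 5.27 and 9.87 CPM in controls. Control 2 was low and the remaining libraries overlapped, with a log2 fold change of 0.23 (SE 0.27) that became -0.03 without control 2. E2f2 stood at 2.43, 2.02 and 2.91 CPM against 3.95, 1.98 and 2.98 CPM, a log2 fold change of -0.26 (SE 0.32), and -0.01 without control 1.

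The repressors E2f4, E2f5 and E2f6 overlapped between groups. E2f4 was at 39.9, 38.4 and 42.0 CPM in the libraries labelled knockout, against 43.7, 33 and 43.2 CPM in controls, a log2 fold change of 0.01 (95% interval -0.30 to 0.31). E2f5 was at 34.3, 43.8 and 34.6 CPM against 27.1, 32.3 and 37.4 CPM, where knockout 2 was high and control 1 low (log2 fold change 0.22, SE 0.16). E2f6, a repressor that does not need pocket proteins, was at -0.06 (SE 0.12). The ratio of E2f4 to E2f1 estimated counts was 9.84, 10.9 and 11 in the libraries labelled knockout, against 12.2, 14.2 and 21.7 in controls. These groups did not overlap, but this is 1 of 5 ratios computed within the gene families, and it was not tested. It combines the E2f1 values, which overlapped through control 1, with E2f4, which was highest in control 1. Orc3 over Orc1 also separated on the FPKM scale (159, 220 and 187 by label against 102, 48.8 and 129). It overlapped in estimated counts and rests on 1 to 11 Orc1 counts per library. No share over all genes was computed for ratios.

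E2f7 and E2f8, atypical E2F repressors that are made in S phase, were too rare to test. E2f7 had 4, 1 and 5 counts by label and 7, 8 and 2 in controls. E2f8 had 8, 4 and 4 against 0, 6 and 2, and the 0 in control 1 allows up to 0.182 CPM. With counts this low the groups overlapped and no direction can be read.

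The pocket protein genes did not differ beyond the spread between libraries. Rbl2 was at 93.5, 105 and 112 CPM against 87.6, 106 and 117 CPM, a log2 fold change of 0.00 (95% interval -0.30 to 0.31). Rbl1 was at 7.36, 9.21 and 11.9 CPM against 8.01, 16 and 9.52 CPM, where control 2 exceeded all others. Its log2 fold change of -0.24 (SE 0.29) became 0.11 without control 2. Rb1, the retinoblastoma gene itself, was at 0.13 (SE 0.12).

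Genes that mark and license origins gave no call either. Orc3, a core subunit of the origin recognition complex, was at 33.1, 38.6 and 39.3 CPM against 37.8, 36.8 and 36 CPM, a log2 fold change of 0.01 (SE 0.11). Orc2, Orc4, Orc5 and Orc6 lay between -0.01 and 0.23. Orc1 had 3, 1 and 1 counts by label, against 5, 11 and 1 in controls, and Cdc6 had 15, 5 and 11 against 9, 12 and 5. Cdt1 was at 3.13, 3.72 and 5.81 CPM against 2.73, 5.88 and 3.39 CPM. Here 1 library of each label stood above the rest, and the log2 fold change of 0.08 (SE 0.36) ran from -0.23 without knockout 3 to 0.47 without control 2.

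Cdc45 and the 4 GINS subunits join the Mcm helicase to make it active. Gins4 (ENSMUSG00000031546, chromosome 8, 23226616 to 23237659) had the second lowest unadjusted p of the 39 genes. It was at 16.4, 14.4 and 12.0 CPM in the libraries labelled knockout, against 12.3, 10.3 and 12.2 CPM in controls. Knockout 1 and 2 stood above all controls and knockout 3 among them (14.3 ± 2.18 against 11.6 ± 1.12 CPM, SD, n = 3 each), which is 0.30 on the log2 scale (SE 0.16; edgeR adjusted p = 0.9995; exact permutation p = 0.3). It ran from 0.19 without knockout 1 to 0.41 without knockout 3. Gins1 was at 1.33, 2.08 and 1.34 CPM against 1.40, 0.861 and 1.17 CPM (log2 fold change 0.47, SE 0.35, and 0.23 without knockout 2). Gins3 was at 1.27, 1.70 and 1.38 CPM against 1.46, 1.72 and 1.75 CPM (-0.18, SE 0.29).

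In Gins2, 1 library stood apart. Its values were 8.23, 2.46 and 6.41 CPM in the libraries labelled knockout, against 6.49, 5.78 and 6.83 CPM in controls, so knockout 2 lay far below the other 5. The log2 fold change was -0.15 (SE 0.38), and 0.19 without knockout 2. Its exons overlap those of Gse1 on the opposite strand, and its gene sum was not a whole number in at least 1 library. Knockout 2 had the highest Gins1 value of all 6 libraries. It was lowest for 4 of the 39 tested genes (Gins2, Pcna, Chaf1a and Uhrf1), which is 10.3%, against 14.6% of all genes. Its cycling-cell sum of 8.58 CPM was also the lowest, close to 8.76 CPM in control 3, where Gins2 stood at 6.83 CPM. The part of cycling cells or of the library in the Gins2 value was not tested. Cdc45 was at 0.01 (SE 0.32). Gins2 was singled out after its values were seen.

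Polymerase and primase genes were low. Prim1, the catalytic subunit of primase that starts each new strand, was at 4.46, 6.12 and 6.18 CPM against 5.40, 8.16 and 3.56 CPM. The controls alone spanned more than the libraries labelled knockout did, with a log2 fold change of -0.03 (SE 0.31) that ran from -0.28 without control 3 to 0.32 without control 2. Pola1, the polymerase that extends these primers, was at 0.04 (SE 0.19). Pole, the leading-strand polymerase, had 12 to 41 counts per library and a log2 fold change of -0.24 (SE 0.47; 0.10 without control 2).

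For the clamp and its loader, Pcna was the single gene of the 39 whose groups did not overlap. Pcna (ENSMUSG00000027342, chromosome 2, 132249162 to 132253314) stood at 42.1, 41.6 and 45.3 CPM in the libraries labelled knockout, against 46.1, 48.7 and 47.0 CPM in controls. All 3 libraries labelled knockout lay below all 3 controls, by a small margin: 43 ± 1.99 against 47.2 ± 1.34 CPM (SD, n = 3 each). On the log2 scale this was -0.13 (SE 0.09, 95% interval -0.35 to 0.08; edgeR unadjusted p = 0.187, adjusted p = 0.9995; exact two-sided permutation p = 0.1, the smallest possible). It stayed between -0.17 and -0.11 with each library left out. On the FPKM scale, which has no TMM scaling, the Pcna groups overlapped.

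The loader subunits showed no common direction. Rfc5 was at 11, 15 and 13.9 CPM against 12.2, 11.6 and 11.4 CPM, with knockout 1 below all controls and the other libraries labelled knockout above them (log2 fold change 0.18, SE 0.16). Rfc1, the large subunit, was at 34.4, 33.7 and 34.1 CPM against 32.7, 38.2 and 37.7 CPM (-0.09, SE 0.10). Rfc2, Rfc3 and Rfc4 lay at 0.06, -0.14 and 0.03.

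Fen1 and Lig1 trim and seal the pieces of the lagging strand. Fen1 was at 9.50, 9.08 and 9.09 CPM in the libraries labelled knockout, against 9.65, 7.70 and 7.19 CPM in controls. Control 1 was the highest of all 6 and the other controls were the lowest (log2 fold change 0.17, SE 0.17). Lig1 was at 0.13 (SE 0.26; -0.04 without control 3).

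Among genes that rebuild chromatin behind the fork, Slbp, which binds the stem-loop of histone mRNAs, was the most abundant. Slbp was at 22.2, 23.5 and 20.6 CPM against 20.3, 22.6 and 26.9 CPM, with overlapping groups and a log2 fold change of -0.07 (SE 0.14; 0.05 without control 3). The histone chaperone subunits Chaf1a and Chaf1b were at 0.13 (SE 0.28; -0.03 without knockout 1) and 0.05 (SE 0.39; -0.28 without knockout 3). Uhrf1, which recruits the maintenance DNA methyltransferase to new DNA, was at 0.05 (SE 0.28; -0.12 without knockout 1).

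Deoxynucleotide supply genes went both ways. Rrm2, the ribonucleotide reductase subunit that is made in S phase, was at 4.58, 2.90 and 4.38 CPM in the libraries labelled knockout, against 2.97, 4.10 and 2.69 CPM in controls. Knockout 1 and 3 and control 2 were high and the other libraries low, with a log2 fold change of 0.28 (SE 0.28; 0.48 without control 2). Tyms, thymidylate synthase, was at 13.6, 14.3 and 16.1 CPM against 12.3, 15.3 and 11 CPM (0.19, SE 0.16). Tk1, the thymidine kinase of cycling cells, was at 10.7, 8.83 and 7.47 CPM against 10.4, 10.9 and 8.76 CPM (-0.16, SE 0.19), and Rrm1 was at -0.06 (SE 0.16; 0.10 without control 2). Groups overlapped for each of the 4.

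**Figure D4:**
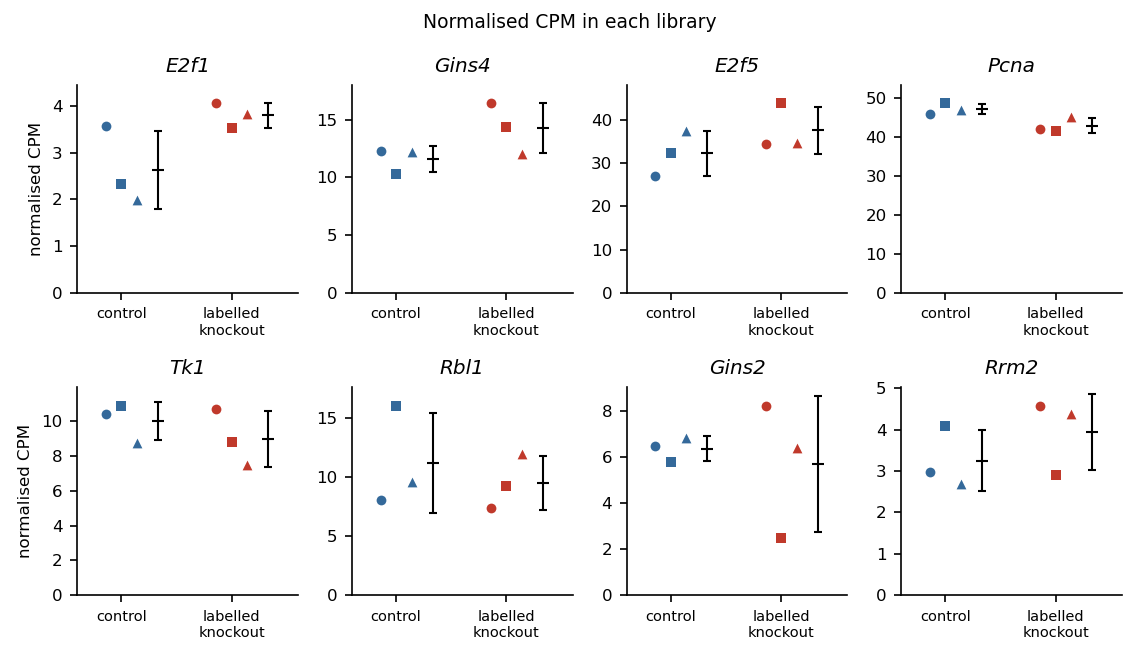
Normalised CPM (y axis, from 0) of 8 genes in each library, blue for control and red for labelled knockout, with marker shape for the replicate and black bars for mean ± SD (n = 3 each). Of these 8, Pcna alone shows no overlap, E2f1 overlaps through control 1 at 3.58 CPM, and Gins2 has a low value of 2.46 CPM in knockout 2.

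The summed level of the 43 genes was 646, 667 and 674 CPM in the libraries labelled knockout, against 621, 660 and 668 CPM in controls, so the groups overlapped. Control 2 held the highest value of 10 of the 39 tested genes (25.6%), close to its share of 23.8% of all genes. Markers of other cell types gave 0 calls, with a lowest edgeR adjusted p of 0.9995. The 7 myeloid genes summed to 169, 146 and 129 CPM by label against 115, 119 and 128 CPM, without overlap by a narrow margin. The largest part was Csf1r, which overlapped between groups (61.8 to 73.7 against 56.7 to 66.4 CPM). Fold changes stood above 0 for 7 of 7, where 49% of all genes did. At an edgeR unadjusted p under 0.05 there was 1 of 7, against 3.23% of all genes. Groups did not overlap for 2 of 7, against 8.18%. These were Itgam (1.56 to 3.41 against 1.17 to 1.4 CPM) and C1qa (14.6 to 27.1 against 11.2 to 14 CPM). Itgam was at 1.05 on the log2 scale (SE 0.36, edgeR unadjusted p = 0.0187, adjusted p = 0.9995). The erythroid genes summed to 161, 131 and 110 CPM against 169, 175 and 171 CPM, again without overlap. Fold changes were below 0 for 5 of 5 tested genes, as for 7659 of 15017 genes tested, and Gata1 had 0 or 1 count. Groups did not overlap for 1 of the 5, against 8.18% of all genes. An edgeR unadjusted p under 0.05 was reached by 1 of the 5, against 3.23%. Most of the erythroid sum was Tfrc, the transferrin receptor that many cell types make. Tfrc overlapped between groups (66.1 to 116 against 97.1 to 117 CPM). The groups did not overlap for Slc4a1, an anion exchanger of red cells and of kidney intercalated cells (31.9 to 34.1 against 40.6 to 63 CPM, log2 fold change -0.57, SE 0.17, edgeR unadjusted p = 0.0093, adjusted p = 0.9995). Lymphocyte genes overlapped (22.4 to 23.9 against 17.2 to 28.9 CPM), as did the cycling-cell genes. The part of these cells in the values above was not tested.

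Other genes of the pathway, outside the 43, gave no call except for Mcm6. Of 9 genes for E2F partners and the DREAM complex, the assembly of E2F4, p130 and MuvB that silences cell cycle genes, 0 passed the threshold and the median log2 fold change was 0.02. Its most abundant genes were Rbbp4 at 0.02 (SE 0.13) and the partners of E2F1 to E2F6, Tfdp2 at 0.00 (SE 0.16) and Tfdp1 at -0.09 (SE 0.10). Of 25 tested genes of the replication fork out of 29 listed, 0 passed, with a median of 0.01 and a range of -0.62 to 0.75. The groups did not overlap for 3 of the 25, where 8.18% of all genes tested did not overlap. These 3 are named after their values were seen, and none passed the threshold. Recql4, a helicase needed at origins, was at 0.75 (SE 0.44), and Cdc7, the kinase that fires origins, at -0.62 (SE 0.43). Pold1, the catalytic subunit of the lagging-strand polymerase, was at -0.22 (SE 0.15). Among the most abundant, Rpa1, which coats single-stranded DNA, was at -0.04 (SE 0.09), and Pole3 and Pole4 were at 0.09 (SE 0.12) and 0.19 (SE 0.17).

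Of 19 tested genes among 21 other genes induced at the G1/S transition, 1 passed, against 0.0133% of all genes tested. Groups did not overlap for 2 of the 19, Mcm6 and Dut, both higher by label, against 8.18% of all genes in either direction. Dut was at 0.25 on the log2 scale (SE 0.13, edgeR unadjusted p = 0.0879, adjusted p = 0.9995). Mcm6, a subunit of the replicative helicase, rose from 2.54 ± 0.777 CPM in controls to 25.1 ± 7.71 CPM by label (SD, n = 3 each), which is 3.29 on the log2 scale (SE 0.30; edgeR adjusted p = 0.0331), and the median of the 19 was 0.07. Its size stayed between 3.06 and 3.57 with each library left out, but the call was lost without knockout 2 (edgeR adjusted p = 0.0653), knockout 3 (0.189), control 1 (0.121) or control 3 (0.241), and with limma on log2(FPKM + 1) (2.36, adjusted p = 0.0726). Of the partners it works with, Mcm2, Mcm3, Mcm4, Mcm5 and Mcm7 lay between -0.18 and 0.46, and Cdc45 and the GINS genes between -0.18 and 0.47, none past the threshold. The highest fold change among the 39 tested genes, 0.53 for E2f1, stood far below that of Mcm6.

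**Figure D5:**
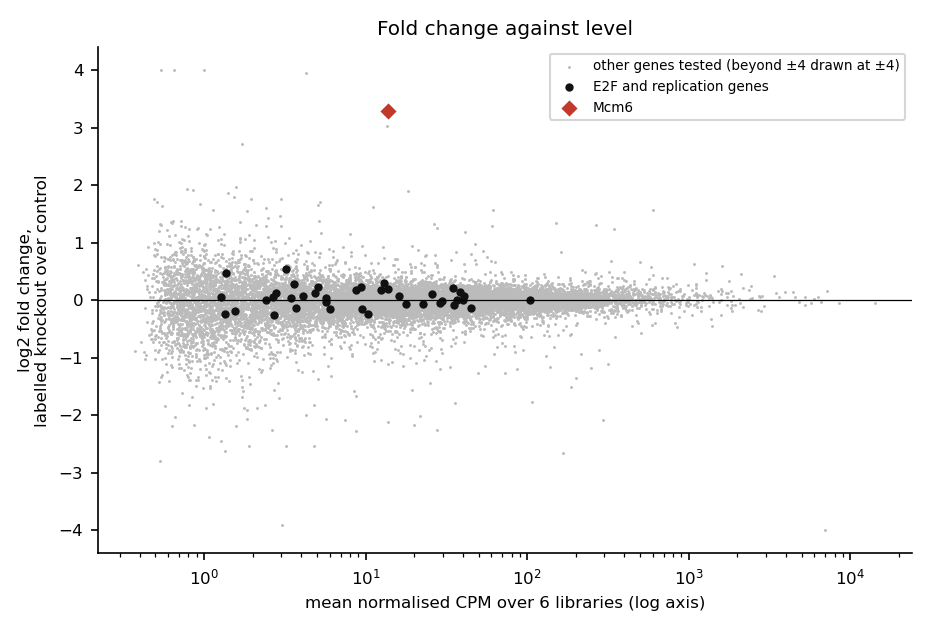
Log2 fold change, labelled knockout over control (y axis), against mean normalised CPM over 6 libraries (x axis, logarithmic) for all genes tested (grey), the 39 tested E2F and replication genes (black) and Mcm6 (red diamond); values past ±4 are drawn at ±4. The black points stay between -0.26 and 0.53, inside the grey cloud, while Mcm6 stands at 3.29.

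How reads were assigned limits some of these values. The exons of 20 of the 43 genes overlap a gene on the opposite strand (Rfc2 with Lat2, Tk1 with Afmid, Rb1 with Lpar6 and Rcbtb2, for example), and the sources used here do not state strandedness, so reads of such pairs cannot be told apart without it. Gene sums of 9 of the 43 were not whole numbers in at least 1 library, among them Rbl2, Fen1, Rfc2 and Chaf1a. The main transcript held at least 80% of a gene's counts in every library for 16 of the 43.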

How the data were processed

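The authors deposited estimated counts, not normalized, and FPKM values for 128603 transcripts of 51905 Ensembl genes in 6 mouse kidney libraries. Per the submitters' processing notes, the build was GRCm38 and the tools included HISAT2 2.0.1, Cuffdiff 2.2.1 and cutadapt 1.9.1, without roles; no source used here states which program counted. Groups and replicate numbers come from the titles. Counts were summed per gene symbol and rounded, and tested with edgeR 4.0.16 in R 4.3.3 (quasi-likelihood, TMM, minimum count 10, group as the only term, two-sided, Benjamini-Hochberg adjustment over 15017 genes, threshold 0.05). CPM values are TMM-normalised, and FPKM was summed per gene. SE is the log2 fold change over the square root of F. Alternatives were the replicate number as a block, median-of-ratios scaling, no filter, DESeq2 1.42.0, limma 3.58.1 with trend on log2(FPKM + 1) or with 0.1, sums per gene ID and each library left out. The deviations of same-numbered libraries correlated at 0.09, -0.091 and 0.116, so numbers were not taken to pair them. Scripts were tested on simulated data. Promoters are RefSeq's. Values per library are given for genes of lowest p in each direction (6 each), the highest by FPKM of each role, and E2f1, Pcna, Rrm2 and Tk1. Genes and lists were chosen with earlier results of these data known. 1 marker of the listed erythroid genes is not reported here and is left out of their sum.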

Additional observations from a re-analysis of the deposited data

How the results depend on the processing

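None of the tested E2F and replication genes passed the threshold in any of the 14 alternatives, the replicate block included (0 called, median log2 fold change 0.04), and 0 were called with any library left out. Over all genes, 2 were called in the main test, 5 without a filter, 15 by DESeq2 and 1 in each limma fit, with 1 to 6 when a library was left out. The median over the E2F and replication genes was 0.01 to 0.10 with a library left out. Of the 39 genes, 16 kept their sign in every alternative (E2f2 only just, at -0.00 with limma without a filter), among them E2f1, E2f5, Gins4, Gins1, Rrm2, Tyms and Pcna. Values close to 0 changed sign outside the left-out libraries for 6 genes: Rbl2 was -0.00 with median-of-ratios scaling and DESeq2, Prim1 0.03 with the replicate block, and limma on log2(FPKM + 1) gave 0.01 for Gins2, 0.02 for Prim1, Rfc1 and Rrm1, with the same values without its filter. With a pseudocount of 0.1 Prim1 was 0.04, Rfc1 0.03 and Rrm1 0.03, and without a filter limma gave -0.07 for Chaf1b. With each library left out, ranges that cross 0 were E2f3 -0.03 to 0.42, E2f4 -0.11 to 0.08, Rbl1 -0.44 to 0.11, Rbl2 -0.10 to 0.10, Orc3 -0.04 to 0.08, Orc4 -0.08 to 0.07, Orc5 -0.06 to 0.18, Cdt1 -0.23 to 0.47, Cdc45 -0.16 to 0.34, Gins2 -0.50 to 0.19, Pola1 -0.05 to 0.13, Prim1 -0.28 to 0.32, Pole -0.56 to 0.10, Rfc2 -0.04 to 0.13, Rfc3 -0.21 to 0.01, Rfc4 -0.18 to 0.24, Lig1 -0.04 to 0.37, Chaf1a -0.03 to 0.32, Chaf1b -0.28 to 0.23, Uhrf1 -0.12 to 0.23, Slbp -0.16 to 0.05 and Rrm1 -0.15 to 0.10. The cause was not tested for these or for Mcm6. The count of intervals within 2-fold with a library left out was chosen after seeing the data. For Mcm6 the call was lost in the limma fits, at 2.36 with log2(FPKM + 1), 3.14 with 0.1 and 2.36 without a filter (adjusted p 0.0726, 0.0759 and 0.405), and its log2 fold change ran from 3.06 to 3.57 with each library left out, 4 of which ended the call. Depth limits E2f7, E2f8, Orc1 and Cdc6, at 15 counts or fewer in every library.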
